A study of Mus musculus with 16 samples.

Results

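The genes described here encode the enzymes that build triglyceride from glycerol-3-phosphate, the proteins that form and coat lipid droplets, and the lipases that empty them, together with the regulators of those lipases. They were taken by gene symbol from a list of 31 names, with the condition that the mean over the 16 libraries lie above 0, and all 31 of 31 were found among the 56832 genes of the deposited table. All 31 also passed the minimum for testing, a mean value of 3, which left 15128 genes. Liver RNA was sequenced from 16 adult C57BL/6 mice, 4 each of WT (*Gclc* wt/wt), Gclc L-KO (*Gclc* f/f), Nrf2 L-KO (*Nrf2* f/f) and L-DKO (*Gclc* f/f *Nrf2* f/f). Every mouse, the WT controls included, had received AAV-TBG-Cre into the tail vein 3 weeks before the liver was taken, at 2.5e11 per mouse, a number given as plaque-forming units in the series description and as genome copies in the methods. Its thyroxine-binding globulin promoter limits Cre recombinase to hepatocytes, and Kupffer, endothelial and other liver cells keep intact alleles. Neither age nor sex is in the labels. The design asks whether loss of *Gclc*, the gene for the catalytic part of the enzyme that starts glutathione synthesis, alters these mRNAs, and whether loss of *Nrf2*, the transcription factor of the antioxidant response, alters that effect.

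Hepatocytes esterify fatty acids in steps. A glycerol-3-phosphate acyltransferase adds the first acyl chain, a lysophosphatidate acyltransferase the next, a lipin removes the phosphate, and a diacylglycerol acyltransferase adds the last chain. The product is stored in cytosolic droplets or loaded onto very-low-density lipoprotein, and it is released again by adipose triglyceride lipase, hormone-sensitive lipase and monoacylglycerol lipase in turn, or by acid lipase in the lysosome.

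The values are rlog values, a log2 transform of counts after scaling that pulls each gene toward its own mean, most strongly where expression is weak. They do not carry transcript length, so levels are compared between libraries and not between genes. In bulk liver, fewer cells of a type and less RNA per cell cannot be told apart. *Gclc* was not lower in the libraries labelled Gclc L-KO than in WT (log2 difference 0.21, adjusted p = 0.53 in limma), while it was lower in L-DKO (-1.75, adjusted p = 9.7e-04). *Nfe2l2*, the gene for NRF2, was higher in L-DKO (1.20, adjusted p = 0.0042). In the libraries labelled Nrf2 L-KO it was 11.94, 11.89, 12.54 and 12.41, all above the WT range of 11.54 to 11.62 and so not lower per gene (0.62, SE 0.21, adjusted p = 0.57). Genotype names are used here as the labels give them. A value per gene does not show whether an exon was removed. *Xist*, which coats the silenced X chromosome of females, ranged from 14.10 to 14.65 in the 8 libraries numbered 1 or 2 and from 7.95 to 8.91 in the 8 numbered 3 or 4, so values within each of these pairs are given where they matter. Compared with WT, 5 of 8 hepatocyte markers were lower in Gclc L-KO, where 12.4% of all genes were. The log2 of the summed levels of all 8 was 21.45 to 21.77 in WT and 19.97 to 21.16 in Gclc L-KO. It was 21.55 to 21.83 in Nrf2 L-KO and 21.02 to 21.83 in L-DKO. This sum lies close to the albumin gene *Alb*, which was not among the 5. In Gclc L-KO replicate 4, *Alb* was 19.61 and the sum 19.97. *Hnf4a*, a transcription factor that defines hepatocytes, stayed between 13.72 and 14.10 in every library. Of 8 Kupffer cell and macrophage markers, 4 were higher in Gclc L-KO (10.6% of all genes were), and 2 were higher in L-DKO (3.79% of all genes). Their summed levels were 12.82 to 13.27 in WT, 13.62 to 14.10 in Gclc L-KO, 12.99 to 14.16 in Nrf2 L-KO and 13.35 to 13.95 in L-DKO. The part of these shifts in the results was not tested.

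Short stretches upstream of 5 of these genes are shown because they hold the letters that factors relevant to this design are known to bind. Promoters from RefSeq were matched for 27 of the 31 genes, and the 250 bases before each start were searched on both strands. The antioxidant response element core, TGACNNNGC, to which NRF2 binds with small MAF proteins, was present for 3 of the 27 genes, against 11.5% of 27025 genes. A direct repeat of AGGTCA with 4 bases between is the site type of the liver X and thyroid hormone receptors. With up to 2 mismatches it was present for 3 of 27 (*Gpam*, *Hsd17b13* and *Plin5*), against 2.96%. The same repeat with 1 base between, the site type of the PPAR receptors, was present for 1 of 27, against 3.72%. The E-box CACGTG was present for 3 of 27 (*Lipe*, *Lpin2* and *Mgll*), against 6.86%, and the sterol regulatory element core TCACNCCAC for 0 of 27, against 1.22%. A match is a run of letters and not a site shown to be bound. The sequences are written 5′ to 3′ along the strand of the gene, with the match in capitals, on the build GRCm38.p6 of the RefSeq table. The files themselves hold no coordinates.
*Cideb*, chr14:55758425-55758461, minus strand, core on the gene's strand: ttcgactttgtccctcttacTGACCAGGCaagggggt
*Fitm1*, chr14:55575432-55575480, plus strand, core on the opposite strand: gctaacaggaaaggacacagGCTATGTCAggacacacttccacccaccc
*Lpin3*, chr2:160880512-160880560, plus strand, core on the gene's strand: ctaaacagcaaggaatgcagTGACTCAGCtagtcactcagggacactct
*Gpam*, chr19:55099648-55099703, minus strand, repeat with 4 bases between: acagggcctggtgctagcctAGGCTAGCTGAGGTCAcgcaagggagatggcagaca
*Plin2*, chr4:86670252-86670304, minus strand, repeat with 1 base between, on the opposite strand: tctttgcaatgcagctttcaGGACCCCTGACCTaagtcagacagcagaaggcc
The capitals of *Lpin3* also spell TGACTCA, the motif of AP-1 factors, within the antioxidant core. Of the 3 genes with the antioxidant core, *Cideb* fell and *Lpin3* rose in Gclc L-KO against WT, by the rule given below. In that comparison 12.4% of all genes fell and 10.6% rose. *Cideb* and *Fitm1* fell in L-DKO against WT (6.17% of all genes), and *Fitm1* also fell against Gclc L-KO (4.80%). Whether the matches had a part in these changes was not tested.

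In Gclc L-KO livers, 5 of the 31 genes rose and 5 fell against WT, among them *Gpat3* and *Fitm2* upward and *Lpin1*, *Dgat2*, *Cideb* and *Lipe* downward. A gene counts as risen or fallen where the limma p, adjusted after Benjamini and Hochberg over all 15128 genes, was under 0.05. By that rule 10.6% of all genes rose and 12.4% fell in this comparison. An unadjusted p under 0.05 was found for 18 of the 31 members and for 5639 of the 15128 genes. Whether the members changed more often than genes at large was not tested. The median log2 change of the members was 0.01, against 0.00 over all genes. In Nrf2 L-KO none of the 31 passed, where 0.139% of all genes did, although *Lipe*, *Fitm1* and *Dgat1* had an unadjusted p under 0.05, which were 3 of 31 where 6.91% of all genes had one. In L-DKO, 1 gene rose (*Agpat5*, background 3.79%) and 4 fell (*Lpin1*, *Cideb*, *Lipe* and *Fitm1*, background 6.17%) against WT. *Lpin1*, *Cideb* and *Lipe* were thus lower than WT in both genotypes with *Gclc* targeted, in 2 comparisons that share the 4 WT libraries. *Lipe* was also lower in Nrf2 L-KO without passing (-0.28, adjusted p = 0.64). L-DKO differed from Nrf2 L-KO by -0.08 in *Lipe* (adjusted p = 0.65) and -0.34 in *Cideb* (adjusted p = 0.077), and of the 3 only *Lpin1* passed there. The heat map of single libraries and the plot of fold changes with their standard errors show all 31 genes.

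**Figure D1:**
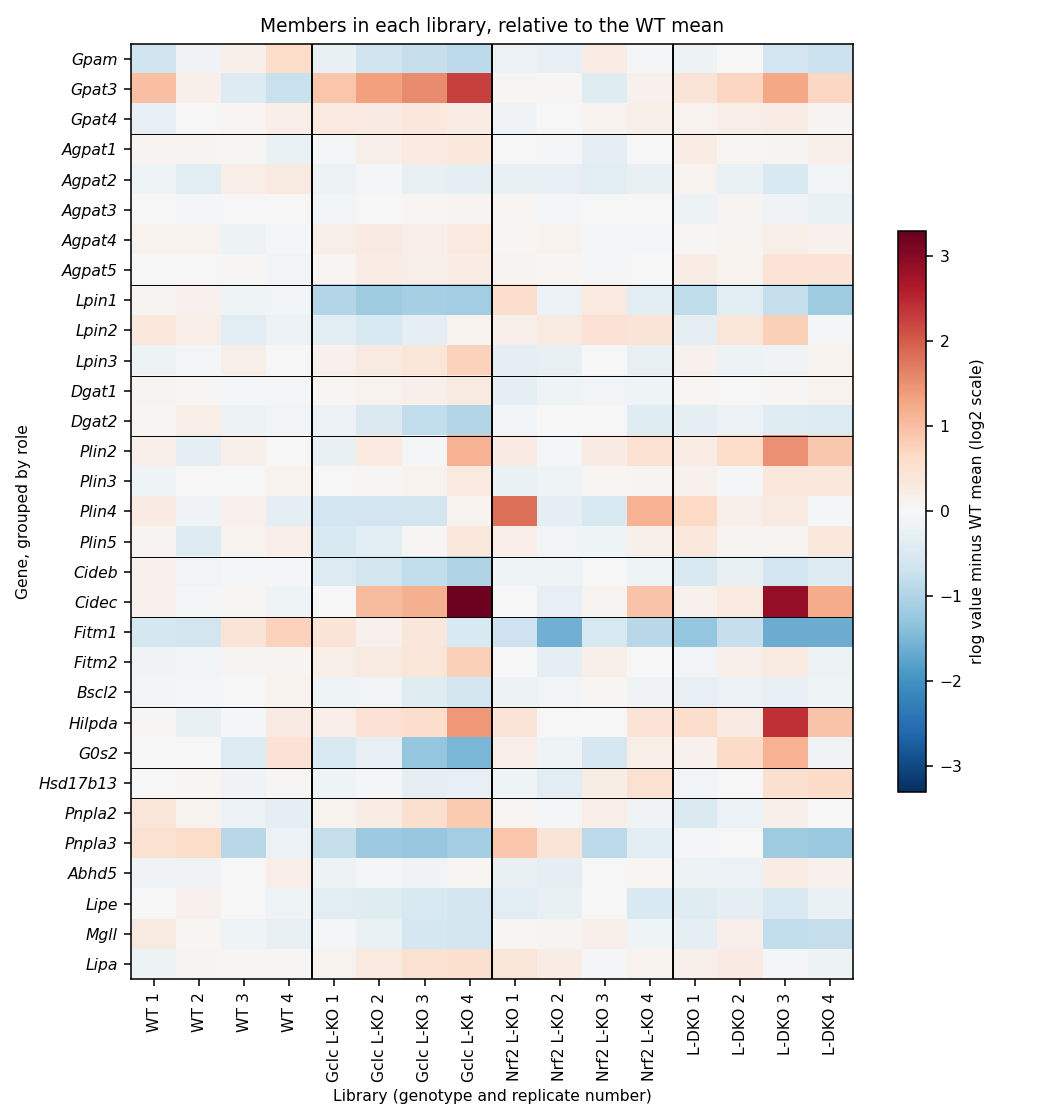
Each cell is the rlog value of 1 gene (rows, grouped by role) in 1 library (columns, 4 per genotype) minus the mean of the 4 WT libraries, on the log2 scale, red for higher and blue for lower. *Lpin1* is blue in all 4 Gclc L-KO and all 4 L-DKO libraries, while *Cidec* is darkest in Gclc L-KO replicate 4 (8.65) and L-DKO replicate 3 (8.30).

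**Figure D2:**
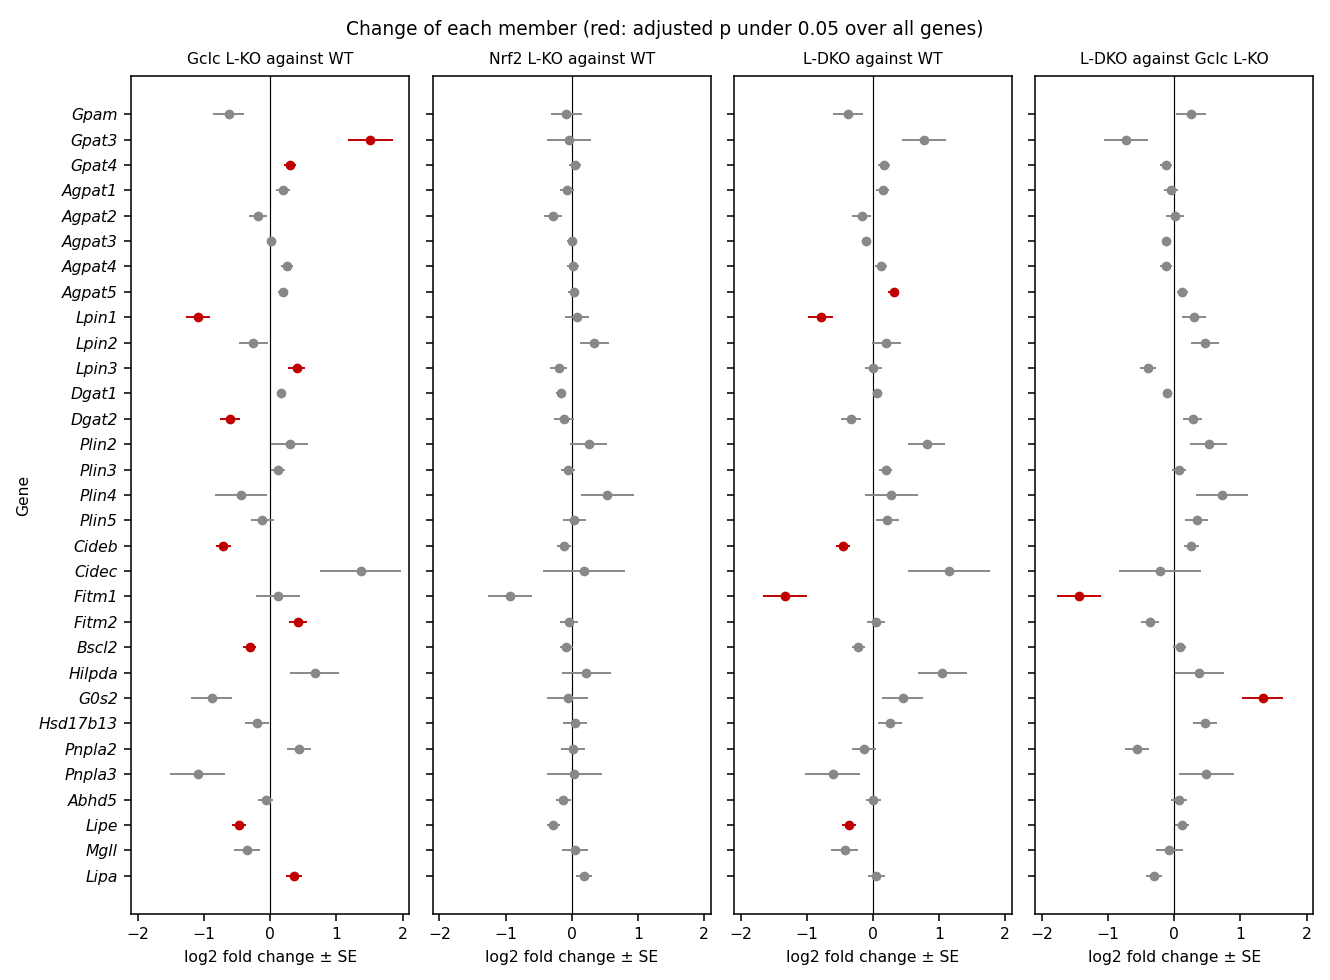
Points are log2 fold changes and bars 1 standard error from the limma fit for 31 genes in 4 comparisons, with 4 libraries per genotype. Red marks an adjusted p under 0.05, which 10 genes reach in the first panel, 0 in the second, 5 in the third and 2 in the fourth.

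Among the acyltransferases that start the pathway, *Gpat3* had the largest change of any member in Gclc L-KO. *Gpat3* encodes an enzyme of the endoplasmic reticulum. Its rlog values were 8.38, 7.56, 6.97 and 6.65 in WT replicates 1 to 4 and 8.30, 8.75, 8.94 and 9.63 in Gclc L-KO. WT replicate 1 was as high as the lowest Gclc L-KO library, and the other 3 WT libraries lay below them all. The difference was 1.51 on the log2 scale (SE 0.33, adjusted p = 0.0061), or 2.86-fold. It was 0.56 within replicates 1 and 2 (adjusted p = 0.26 on those libraries alone) and 2.47 within replicates 3 and 4 (adjusted p = 0.0011). In L-DKO the values were 7.82, 8.10, 8.66 and 8.09, of which the lowest 3 fell inside the WT range. The change of 0.78 (SE 0.33, adjusted p = 0.14) did not pass, and it was -0.01 within replicates 1 and 2 and 1.56 within replicates 3 and 4. Nrf2 L-KO stayed between 6.98 and 7.54, inside the range of WT.

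*Gpat4*, the other microsomal isoform, rose by a smaller step in Gclc L-KO. It was 11.54, 11.83, 11.87 and 12.02 in WT and 12.14, 12.10, 12.15 and 12.06 in Gclc L-KO, so the groups did not overlap, at a difference of 0.30 (SE 0.09, adjusted p = 0.031). *Gpam*, which encodes the mitochondrial isoform, was 12.57, 13.10, 13.38 and 13.83 in WT, 12.96, 12.56, 12.47 and 12.37 in Gclc L-KO. The L-DKO libraries gave 13.05, 13.20, 12.60 and 12.52. WT replicate 1 was the low library of its group and sat among the Gclc L-KO values. The differences from WT were -0.63 (SE 0.23, adjusted p = 0.062) in Gclc L-KO and -0.38 (SE 0.23, adjusted p = 0.30) in L-DKO. Within the pairs the Gclc L-KO change was -0.07 for replicates 1 and 2 and -1.19 for replicates 3 and 4, a gap of -1.11 (SE 0.27, adjusted p = 0.081). The change in L-DKO differed between the replicate pairs by -1.33 (SE 0.27, adjusted p = 0.026). It was 0.29 for replicates 1 and 2, against -1.05 for replicates 3 and 4.

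The 5 lysophosphatidate acyltransferases, whose products make phosphatidate, changed little. *Agpat5* was 8.37, 8.36, 8.39 and 8.27 in WT and 8.59, 8.46, 8.79 and 8.79 in L-DKO. Each L-DKO library was above each WT library, by a mean of 0.31 (SE 0.08, adjusted p = 0.029). Gclc L-KO lay between, at 8.42 to 8.59, and its difference of 0.19 (adjusted p = 0.10) did not pass. *Agpat1*, *Agpat2*, *Agpat3* and *Agpat4* passed in no comparison between genotypes, with differences of -0.18 to 0.25 in Gclc L-KO and -0.17 to 0.15 in L-DKO.

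*Lpin1*, the lipin that also acts as a transcriptional coactivator, was lower in every library of both genotypes with *Gclc* targeted. It stood at 11.47, 11.55, 11.25 and 11.31 in WT and at 10.42, 10.23, 10.30 and 10.25 in Gclc L-KO. The 4 Gclc L-KO libraries lay close together and all below WT, at a difference of -1.10 (SE 0.18, adjusted p = 0.0012), or 2.14-fold. L-DKO was low as well, at 10.55, 11.02, 10.60 and 10.23. All 4 were below WT, and only replicate 4 was as low as Gclc L-KO. The difference from WT was -0.79 (SE 0.18, adjusted p = 0.017), and that from Gclc L-KO was 0.30 (SE 0.18, adjusted p = 0.35). Nrf2 L-KO varied more, at 11.96, 11.20, 11.71 and 11.04, and spanned the whole WT range. *Lpin1* was the only member that passed between L-DKO and Nrf2 L-KO, at -0.88 (SE 0.18, adjusted p = 0.018), where 2.61% of all genes fell and 2.65% rose. Within the pairs the change in Gclc L-KO was -1.19 and -1.003, and that in L-DKO -0.73 and -0.86.

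The other lipins did not follow *Lpin1*. *Lpin3* was 7.75, 7.87, 8.09 and 7.92 in WT and 8.05, 8.19, 8.32 and 8.66 in Gclc L-KO. The lowest Gclc L-KO library lay under the highest WT library, and the difference was 0.40 (SE 0.13, adjusted p = 0.036). In L-DKO *Lpin3* was at 8.06, 7.74, 7.80 and 8.03, with a difference from WT of 0.00 (SE 0.13). Against Gclc L-KO that was -0.40 (SE 0.13, adjusted p = 0.068), which passed with the replicate number as a block (adjusted p = 0.0499). *Lpin2*, a lipin abundant in liver, was 12.33 to 13.06 in WT, 12.21 to 12.84 in Gclc L-KO, 12.88 to 13.20 in Nrf2 L-KO and 12.39 to 13.51 in L-DKO, and did not pass.

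For the last step, *Dgat2* fell in Gclc L-KO and *Dgat1* did not pass. *Dgat2*, the diacylglycerol acyltransferase tied to newly made fatty acids, was 13.68, 13.86, 13.49 and 13.57 in WT and 13.46, 13.17, 12.83 and 12.69 in Gclc L-KO. All 4 Gclc L-KO libraries were below WT, replicates 3 and 4 by the most, at a difference of -0.61 (SE 0.15, adjusted p = 0.010). L-DKO lay between at 13.34, 13.46, 13.26 and 13.19, below WT in every library, and its difference of -0.34 (SE 0.15, adjusted p = 0.15) did not pass. *Dgat1*, the isoform that re-esterifies fatty acids from outside, was 9.07 to 9.23 in WT, 9.21 to 9.44 in Gclc L-KO, 8.84 to 9.07 in Nrf2 L-KO and 9.16 to 9.26 in L-DKO. Its differences from WT were 0.17, -0.17 and 0.06 (SE 0.07 each) and none passed.

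**Figure D3:**
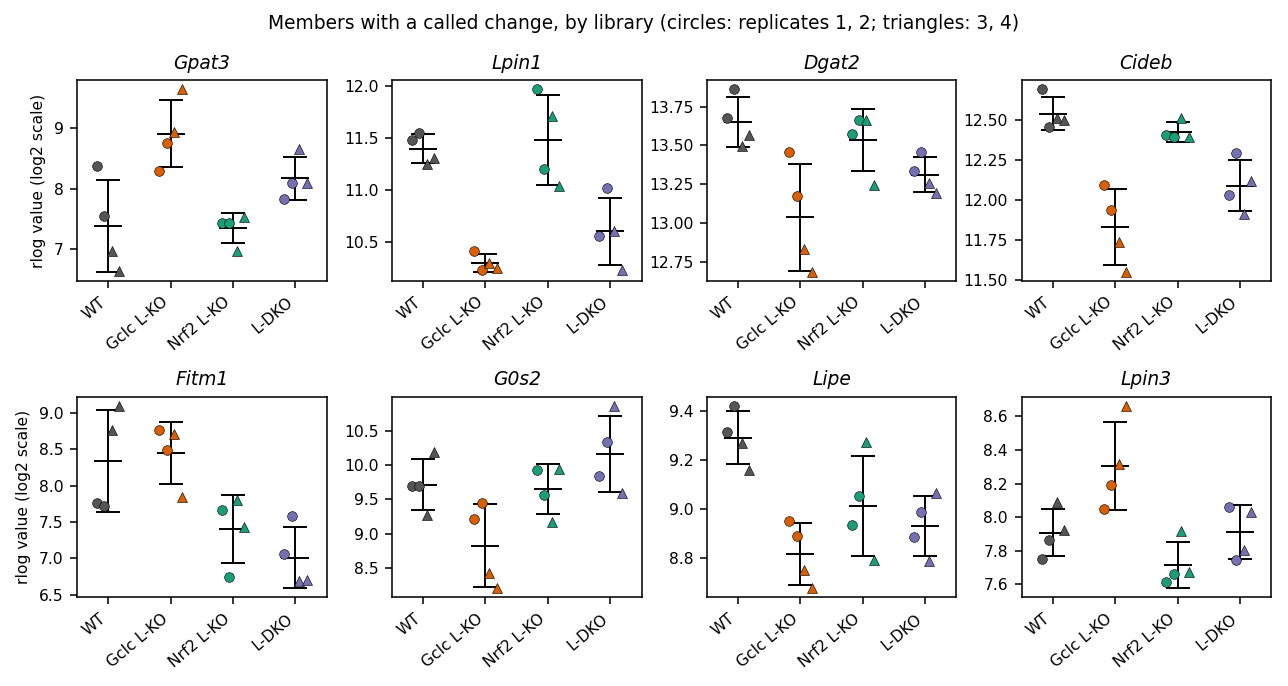
Rlog values (log2 scale) of 8 genes that changed, by genotype, with circles for replicates 1 and 2, triangles for replicates 3 and 4, and black lines for the mean ± SD of 4 libraries. *Lpin1* in Gclc L-KO (10.23 to 10.42) lies below WT (11.25 to 11.55) with no overlap, whereas for *Fitm1* the L-DKO libraries (6.69 to 7.58) are below WT (7.72 to 9.10) and below Gclc L-KO (7.84 to 8.76).

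Of the CIDE genes, *Cideb* fell and *Cidec* was high in single libraries. *Cideb*, which encodes a hepatocyte droplet protein needed to lipidate very-low-density lipoprotein, was 12.69, 12.46, 12.51 and 12.49 in WT and 12.09, 11.94, 11.74 and 11.55 in Gclc L-KO. The groups did not overlap, and the difference was -0.71 (SE 0.11, adjusted p = 5.3e-04). L-DKO was 12.03, 12.29, 11.91 and 12.11, again below WT in all 4 libraries and overlapping Gclc L-KO in replicates 1 and 3. It differed from WT by -0.45 (SE 0.11, adjusted p = 0.019) and from Gclc L-KO by 0.26 (SE 0.11, adjusted p = 0.15). Nrf2 L-KO stayed at 12.39 to 12.51.

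*Cidec*, which encodes the protein that fuses small droplets into large ones and is low in lean liver, was 5.56, 5.37, 5.43 and 5.26 in WT. It was 5.41, 6.44, 6.58 and 8.65 in Gclc L-KO, 5.41, 5.12, 5.50 and 6.34 in Nrf2 L-KO, and 5.54, 5.74, 8.30 and 6.63 in L-DKO. In both genotypes with *Gclc* targeted, replicate 1 stayed at the WT level and the other 3 lay above WT, 1 of them far above. The differences of 1.37 in Gclc L-KO (SE 0.62, adjusted p = 0.12) and 1.15 in L-DKO (SE 0.62, adjusted p = 0.24) did not pass against this spread. *Plin2*, the main coat protein of hepatocyte droplets, was 13.77, 13.29, 13.77 and 13.62 in WT, 13.36, 13.93, 13.58 and 14.76 in Gclc L-KO, whereas L-DKO reached 13.87, 14.21, 15.11 and 14.51. Each L-DKO library exceeded each WT library, with a difference of 0.81 (SE 0.28, adjusted p = 0.077) that did not pass. *Hilpda*, a hypoxia-inducible inhibitor of adipose triglyceride lipase, was 5.78, 5.48, 5.67 and 6.01 in WT, 5.95, 6.21, 6.30 and 7.15 in Gclc L-KO, whereas L-DKO reached 6.31, 6.01, 8.15 and 6.67. Its differences from WT were 0.67 (SE 0.37, adjusted p = 0.20) in Gclc L-KO and 1.05 (SE 0.37, adjusted p = 0.079) in L-DKO.

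These droplet genes were thus highest in the same livers, Gclc L-KO replicate 4 and L-DKO replicate 3. Gclc L-KO replicate 4 was also the library with the lowest summed hepatocyte markers (19.97), and L-DKO replicate 3 the lowest of its group (21.02). Other libraries came close in this sum with much lower *Cidec*. Gclc L-KO replicate 3 had a sum of 20.18 with *Cidec* at 6.58, and L-DKO replicate 4 had 21.11 with *Cidec* at 6.63. The part of hepatocyte RNA in these values was not tested. Because *Cidec* and *Plin4* are also adipocyte genes, adipocyte markers were examined. Of 7 markers only 3 passed the minimum for testing and 0 differed in Gclc L-KO or L-DKO against WT. Their summed levels were 7.76 to 8.52 in WT, 7.41 to 8.60 in Gclc L-KO, 7.65 to 8.72 in Nrf2 L-KO and 7.32 to 7.74 in L-DKO. Gclc L-KO replicate 4 held the 8.60, while the other 3 libraries of its genotype were at 7.46, 7.41 and 7.70, and L-DKO replicate 3 was at 7.42. The part of adipocyte RNA in these values was not tested. The adiponectin gene *Adipoq* averaged 3.14 over the 16 libraries, *Plin1* 2.42, *Cidea* 0.64 and *Lep* -1.20. *Adipoq* was 3.98 in Gclc L-KO replicate 4 but 2.55 in L-DKO replicate 3, the lowest of that group, and it was highest in WT replicate 2 (4.36), where *Cidec* was 5.37.

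**Figure D4:**
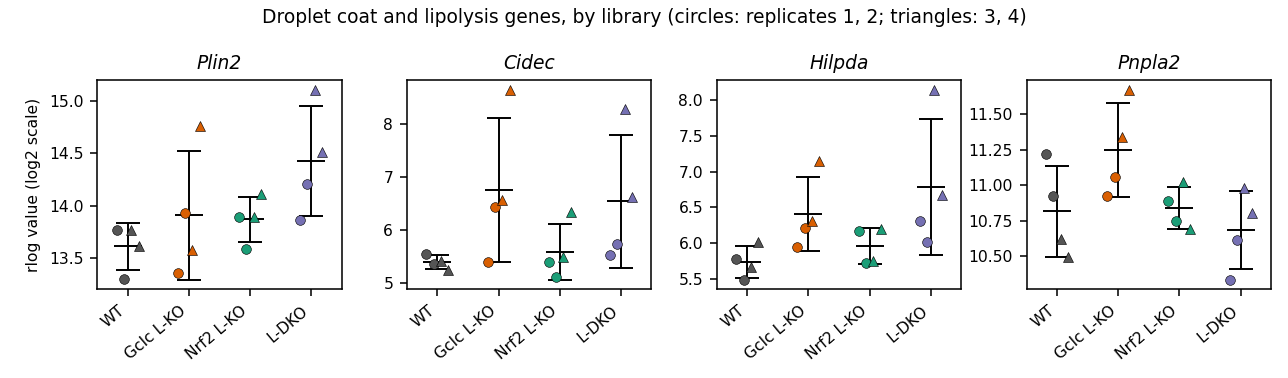
Rlog values (log2 scale) of *Plin2*, *Cidec*, *Hilpda* and *Pnpla2* by genotype, with circles for replicates 1 and 2, triangles for replicates 3 and 4, and black lines for the mean ± SD of 4 libraries. *Cidec* reaches 8.65 in 1 Gclc L-KO library and 8.30 in 1 L-DKO library while WT stays between 5.26 and 5.56.

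The remaining perilipins changed in no comparison between genotypes. *Plin3*, whose product moves from the cytosol to young droplets, was 10.28 to 10.54 in WT, 10.41 to 10.75 in Gclc L-KO and 10.37 to 10.78 in L-DKO. *Plin5*, which tethers droplets to mitochondria, was 9.03 to 9.67, 8.95 to 9.79 and 9.54 to 9.80 in the same order. *Plin4* was 6.60 to 7.15 in WT and 6.85 to 7.54 in L-DKO, whereas Nrf2 L-KO split into 8.69 and 8.04 in replicates 1 and 4 and 6.59 and 6.38 in replicates 2 and 3. The SD of 1.12 in that group was the widest of its 4, and the difference from WT was 0.54 (SE 0.40, adjusted p = 0.84). The summed adipocyte markers split the same libraries. They were 8.72 and 8.15 in replicates 1 and 4 and 7.65 and 7.73 in replicates 2 and 3. Among the single markers, *Plin1* was 2.65 and 3.05 in replicates 1 and 4, against 2.44 and 2.60 in replicates 2 and 3. Replicates 1 and 3 were thus nearly level, and its mean of 2.42 lay under the minimum of 3 for testing. *Adipoq* did not split this way, as it was higher in replicate 3 than in replicate 4. What part adipocyte RNA had in the *Plin4* values was not tested.

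Genes that bud droplets from the endoplasmic reticulum changed in part. *Fitm1*, which encodes a triglyceride-binding protein best known from muscle, was 7.76, 7.72, 8.77 and 9.10 in WT and 8.76, 8.49, 8.71 and 7.84 in Gclc L-KO. The ranges overlapped widely, and the difference was 0.11 (SE 0.33, adjusted p = 0.83). It was 0.88 within replicates 1 and 2 but -0.66 within replicates 3 and 4, a gap of -1.54 (SE 0.45, adjusted p = 0.13). L-DKO was 7.05, 7.58, 6.69 and 6.70, below every WT and every Gclc L-KO library. The differences were -1.33 from WT (SE 0.33, adjusted p = 0.025) and -1.44 from Gclc L-KO (SE 0.33, adjusted p = 0.015), or 2.72-fold. *Fitm1* was the only member to fall from Gclc L-KO to L-DKO, where 4.80% of all genes fell. Nrf2 L-KO was 7.66, 6.74, 7.80 and 7.43, with only replicate 3 inside the WT range, and its difference of -0.93 (SE 0.33, adjusted p = 0.61) did not pass. Against WT the L-DKO change was -0.42 within replicates 1 and 2 and -2.24 within replicates 3 and 4, a gap of -1.81 (SE 0.45, adjusted p = 0.048). Against Gclc L-KO it was -1.31 and -1.58.

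*Fitm2*, the family member found in most tissues, was 10.27 to 10.48 in WT and 10.58 to 11.17 in Gclc L-KO, with no overlap and a difference of 0.42 (SE 0.14, adjusted p = 0.039). In L-DKO it was 10.21 to 10.69, on both sides of the WT range (0.05, SE 0.14). *Bscl2*, which encodes seipin, was 9.92, 9.95, 10.01 and 10.13 in WT and 9.86, 9.92, 9.60 and 9.41 in Gclc L-KO. Replicates 1 and 2 were at or just below WT and replicates 3 and 4 well below, for a difference of -0.31 (SE 0.10, adjusted p = 0.036) that was -0.05 and -0.57 within the pairs. *Hsd17b13*, which encodes a droplet dehydrogenase of hepatocytes, did not pass between genotypes. Its change in L-DKO against WT was -0.09 in replicates 1 and 2 and 0.61 in replicates 3 and 4, which differed from each other by 0.70 (SE 0.14, adjusted p = 0.026).

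*G0s2*, whose product inhibits adipose triglyceride lipase, was the only member that rose in L-DKO over Gclc L-KO, where 3.84% of all genes rose. Gclc L-KO livers had 9.22, 9.45, 8.43 and 8.20, and L-DKO livers had 9.84, 10.34, 10.86 and 9.60. All 4 L-DKO libraries were above all 4 Gclc L-KO libraries, by 1.34 (SE 0.31, adjusted p = 0.016), or 2.52-fold. WT overlapped both, at 9.69, 9.70, 9.27 and 10.18, and Nrf2 L-KO was at 9.17 to 9.94. The difference from WT was -0.89 in Gclc L-KO (SE 0.31, adjusted p = 0.054) and 0.45 in L-DKO (SE 0.31, adjusted p = 0.37), neither past the threshold. From Gclc L-KO to L-DKO the step was 0.76 in the first replicate pair (1 and 2) and 1.91 in the second (3 and 4).

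Of the lipases, *Lipe* fell and *Lipa* rose in Gclc L-KO. *Lipe*, the gene for hormone-sensitive lipase, was 9.32, 9.42, 9.27 and 9.16 in WT, 8.95, 8.89, 8.75 and 8.68 in Gclc L-KO, whereas L-DKO gave 8.89, 8.99, 8.79 and 9.07. Both targeted groups lay wholly below WT, by -0.47 (SE 0.10, adjusted p = 0.0053) and -0.36 (SE 0.10, adjusted p = 0.039). Nrf2 L-KO was 8.94, 9.05, 9.28 and 8.79, and only replicate 3 reached the WT range (-0.28, SE 0.10, adjusted p = 0.64). *Lipa*, the lysosomal acid lipase, was 12.62, 12.88, 12.84 and 12.83 in WT and 12.90, 13.11, 13.29 and 13.32 in Gclc L-KO. All 4 Gclc L-KO libraries were above WT, by 0.36 (SE 0.12, adjusted p = 0.044), and L-DKO lay back at 12.61 to 13.06. *Lipa* is also strongly expressed by macrophages, whose markers were higher in Gclc L-KO by the values given above, and their part in this change was not tested.

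*Pnpla2*, which encodes adipose triglyceride lipase, was 11.22, 10.93, 10.63 and 10.50 in WT and 10.93, 11.06, 11.34 and 11.67 in Gclc L-KO. WT was highest in replicates 1 and 2 and Gclc L-KO in replicates 3 and 4, so the difference of 0.43 (SE 0.18, adjusted p = 0.098) consisted of -0.08 within the first pair and 0.95 within the second. In L-DKO it was 10.34, 10.62, 10.98 and 10.81, within or below the WT range, with -0.60 in the first pair and 0.33 in the second, which differed by 0.93 (SE 0.21, adjusted p = 0.038). *Pnpla3*, a lipase of hepatocyte droplets, was 5.60, 5.70, 4.17 and 4.89 in WT and 4.30, 3.90, 3.85 and 3.94 in Gclc L-KO. WT replicate 3 was as low as the Gclc L-KO libraries, and the difference of -1.10 (SE 0.42, adjusted p = 0.070) did not pass. Within replicates 1 and 2 it was -1.55 (adjusted p = 0.013 on those libraries alone), and within replicates 3 and 4 -0.64 (adjusted p = 0.12). With *Xist* as a covariate, *Pnpla3* passed in this comparison (-1.08, adjusted p = 0.0032). *Mgll*, for monoacylglycerol lipase, was 11.74 to 12.28 in WT, 11.38 to 11.95 in Gclc L-KO and 11.16 to 12.15 in L-DKO, and *Abhd5*, for the coactivator of adipose triglyceride lipase, was 9.76 to 10.11, 9.72 to 9.95 and 9.70 to 10.13. Neither passed.

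Some members differed between the replicate pairs in a fit with 1 pair term shared by all genotypes. Over all 4 genotypes, replicates 3 and 4 were lower than replicates 1 and 2 in *Pnpla3* (-0.95, SE 0.16, adjusted p = 0.0023), *Mgll* (-0.41, SE 0.09, adjusted p = 0.010) and *Dgat2* (-0.28, SE 0.08, adjusted p = 0.025), and higher in *Abhd5* (0.25, SE 0.05, adjusted p = 0.0057) and *Plin3* (0.22, SE 0.05, adjusted p = 0.0063). These are 5 of 31 members, where 15.0% of all genes differed. That fit does not test each genotype by itself. *Mgll* in Nrf2 L-KO, for instance, was 12.04 and 12.08 in replicates 1 and 2 and 12.15 and 11.84 in replicates 3 and 4. The size of the genotype change differed between the pairs for 4 of 31 in L-DKO against WT (*Gpam* and *Fitm1* lower, *Hsd17b13* and *Pnpla2* higher in replicates 3 and 4), where 4.34% of all genes did. For Gclc L-KO against WT it differed for 0 of 31 (background 0.899%), with 10 at an unadjusted p under 0.05 where 15.3% of all genes had one, and for Nrf2 L-KO against WT for 0 of 31 (background 0%), with 5 at an unadjusted p under 0.05 where 13.0% did. Fitted on replicates 3 and 4 alone, 13 members passed for Gclc L-KO and 10 for L-DKO against WT, where 27.6% and 22.2% of all genes did. On replicates 1 and 2 alone the counts were 4 and 0 (5.61% and 0.813% of all genes). With *Xist* as a covariate over all libraries they were 12 and 9 (30.3% and 18.5%), as *G0s2* and *Pnpla3* were added for Gclc L-KO, and *Plin2*, *Hilpda*, *Mgll* and *Dgat2* for L-DKO.

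**Figure D5:**
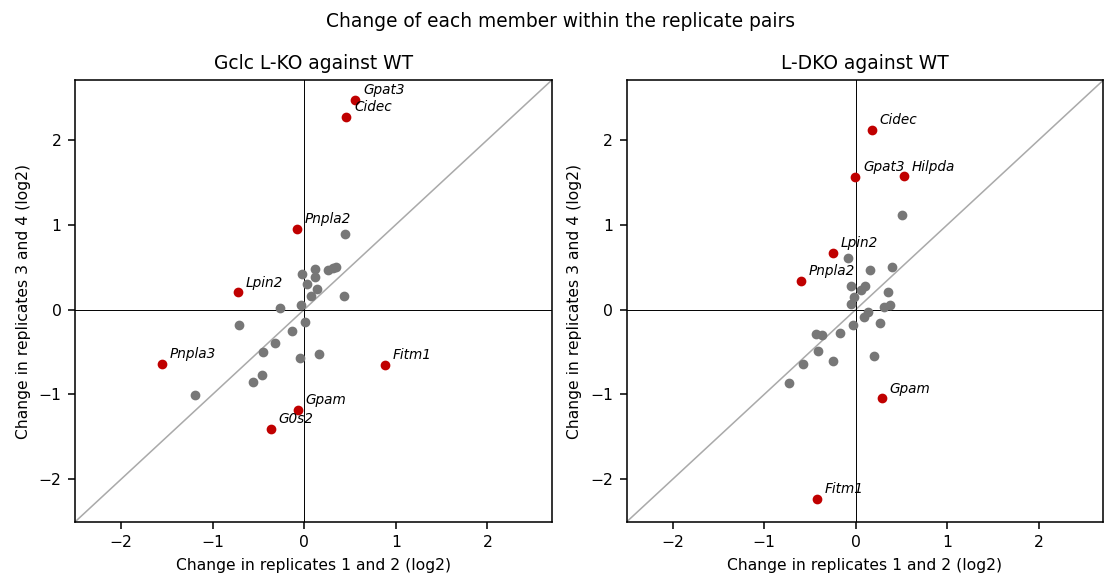
Each point is 1 gene, with its log2 change against WT within replicates 1 and 2 (horizontal) and within replicates 3 and 4 (vertical), for Gclc L-KO (left) and L-DKO (right). The diagonal marks equal changes, and red names mark genes whose changes are at least 0.9 apart, such as *Gpat3* in Gclc L-KO (0.56 and 2.47) and *Fitm1* in L-DKO (-0.42 and -2.24).

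Whether the change in L-DKO departed from the sum of the single changes was asked with the interaction, the effect of targeting *Gclc* where *Nrf2* was also targeted less its effect where it was not. None of the 31 members passed, where 0.687% of all genes did, and 5 had an unadjusted p under 0.05, against 14.8% of all genes. The 5 values were *G0s2* (1.40, SE 0.44, adjusted p = 0.18), *Lipa* (-0.50, SE 0.17, adjusted p = 0.22), *Lipe* (0.39, SE 0.14, adjusted p = 0.24), *Cideb* (0.37, SE 0.15, adjusted p = 0.27) and *Pnpla2* (-0.59, SE 0.26, adjusted p = 0.31).

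How far single libraries carried these calls differed by gene. In Gclc L-KO against WT, the calls of *Cideb*, *Dgat2*, *Gpat3*, *Lipe* and *Lpin1* held when each of the 8 libraries was left out in turn. Those of *Bscl2*, *Fitm2*, *Gpat4*, *Lipa* and *Lpin3* were lost without Gclc L-KO replicate 3 and without replicate 4. They were also lost without WT replicate 1 (*Fitm2*, *Gpat4*, *Lipa* and *Lpin3*), 2 (all 5), 3 (*Bscl2*, *Fitm2* and *Lipa*) or 4 (*Bscl2*, *Fitm2*, *Lipa* and *Lpin3*), or without Gclc L-KO replicate 2 (*Gpat4* and *Lipa*). The 10 calls became 5 without WT replicate 2 or Gclc L-KO replicate 3 or 4, and 6 without WT replicate 4. Of all 15128 genes, 922 rose and 1077 fell without Gclc L-KO replicate 4, against 1609 and 1872 with every library kept. In L-DKO against WT, the 5 calls became 0 without L-DKO replicate 3, 1 without L-DKO replicate 4, 2 without WT replicate 2 or 3 and 3 without WT replicate 4. Of all 15128 genes, 161 rose and 269 fell without L-DKO replicate 3, against 573 and 933 with every library kept. All 5 genes lost their call without L-DKO replicate 3, and all but *Cideb* without L-DKO replicate 4. Of the WT libraries, replicate 1 was needed for *Cideb* and *Lipe*, replicate 2 for *Agpat5*, *Lipe* and *Lpin1*, replicate 3 for *Agpat5*, *Fitm1* and *Lipe*, and replicate 4 for *Agpat5* and *Fitm1*, and *Lipe* also needed L-DKO replicate 1. Between L-DKO and Gclc L-KO, the *G0s2* call was lost without Gclc L-KO replicate 3 or 4 and the *Fitm1* call without Gclc L-KO replicate 3, and the 2 calls became 5 without Gclc L-KO replicate 1. The *Lpin1* call against Nrf2 L-KO was lost without Nrf2 L-KO replicate 3 or L-DKO replicate 3 or 4. The differences between the replicate pairs in L-DKO were thinner still. That of *Fitm1* was lost without any 1 of the 8 libraries, and those of *Gpam*, *Hsd17b13* and *Pnpla2* held only without WT replicate 2. Over all genotypes, *Dgat2* lost its difference between the pairs without Gclc L-KO replicate 4 or Nrf2 L-KO replicate 4, and the other 4 genes kept theirs.

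Genes around the pathway were read from lists of related genes. For every list, the background was 10.6% of all genes higher and 12.4% lower in Gclc L-KO against WT. It was 3.79% and 6.17% in L-DKO against WT, and 3.84% and 4.80% in L-DKO against Gclc L-KO. Of 10 tested genes that supply acyl-CoA, glycerol phosphate and monoacylglycerol, 2 rose and 4 fell in Gclc L-KO, with a median log2 change of -0.39 against 0.00 over all genes. *Mogat2*, a monoacylglycerol acyltransferase that makes diacylglycerol by another route, rose by 1.43 (SE 0.26, adjusted p = 0.0022), and *Gpd1*, which makes glycerol-3-phosphate, by 0.39 (SE 0.13, adjusted p = 0.039). *Pck1*, of glyceroneogenesis, was -1.61 (SE 0.26, adjusted p = 8.3e-04), the acyl-CoA synthetase genes *Acsl3* and *Acsl5* were -1.01 each (adjusted p = 1.0e-04 and 3.0e-04), and *Aqp9*, a glycerol channel, was -0.75 (adjusted p = 0.0035). In L-DKO against WT, 0 rose and 1 fell (*Acsl5*, -0.54). Against Gclc L-KO, *Acsl3* (0.80), *Pck1* (1.11) and *Aqp9* (0.54) were higher in L-DKO and *Mogat2* (-1.22) was lower.

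Of 14 tested neutral lipid hydrolases outside the 31, 3 rose and 6 fell in Gclc L-KO (median -0.43). Hepatic lipase, *Lipc*, was -1.64 (SE 0.24, adjusted p = 4.3e-04), arylacetamide deacetylase, *Aadac*, was -1.06 (SE 0.18, adjusted p = 0.0014), and the carboxylesterase *Ces1d* was -0.94 (SE 0.32, adjusted p = 0.048). *Ces1g* rose by 0.97 (SE 0.27, adjusted p = 0.019), yet was -1.84 in Nrf2 L-KO (adjusted p = 0.010) and -0.95 in L-DKO (adjusted p = 0.040), the 1 gene of these lists that passed in Nrf2 L-KO. The carboxylesterase genes are related in sequence, and whether some of their counts are shared between them was not tested. In L-DKO against WT, 0 of the 14 rose and 5 fell (3.79% and 6.17% of all genes).

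Of 12 lipin partners and genes of the phosphatidate branch, 1 rose and 1 fell in Gclc L-KO (median 0.18). They were *Cds2*, which turns phosphatidate toward phosphatidylinositol, at 0.74 (SE 0.11, adjusted p = 5.1e-04), and *Pemt*, which methylates phosphatidylethanolamine, at -0.88 (SE 0.18, adjusted p = 0.0036). From Gclc L-KO to L-DKO, *Cds2* fell (-0.78) and *Pemt* rose (0.69). *Chpt1*, a cholinephosphotransferase, was lower in L-DKO, at -0.99 against WT and -0.71 against Gclc L-KO. Of 15 tested droplet proteins outside the 31, 2 rose and 3 fell in Gclc L-KO (median 0.01), *Acsl3* among them again, and 2 rose and 2 fell in L-DKO against WT (median -0.02). The sterol enzymes *Lss* and *Nsdhl* were lower in both (-1.23 and -0.43, then -0.91 and -0.94).

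Of 12 transcription factors known to act on such genes, 1 rose and 3 fell in Gclc L-KO (median -0.18). *Srebf1*, for the sterol-regulated factor of lipogenesis, was -1.57 (SE 0.26, adjusted p = 0.0012), *Ppargc1a*, a coactivator with which lipin 1 cooperates, was -0.95 (SE 0.28, adjusted p = 0.025), *Nr1h3*, for liver X receptor alpha, was -0.52 (SE 0.09, adjusted p = 0.0020), and *Hif1a* rose by 0.32 (SE 0.08, adjusted p = 0.013). In L-DKO only *Srebf1* passed against WT (-0.88, adjusted p = 0.049). *Pparg*, the adipogenic receptor, fell from Gclc L-KO to L-DKO (-1.17, SE 0.20, adjusted p = 0.0020).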

How the data were processed

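Liver RNA of 16 mice was measured with a stranded mRNA library kit, and the submitters' processing notes list STAR 2.7.9a, bcl2fastq 2.20.0, fastp, Subread 2.0.1, featureCounts, R 3.5.1, DESeq2 1.34.0 and, as assembly, GRCm39. The authors deposited rlog values on the log2 scale (-2.27 to 21.59), already scaled between libraries (medians over the tested genes 8.33 to 8.38), so counts and depth are unknown and no count model or interval was computed. Of 56832 genes, 26656 were at 0 in every library. Groups follow the genotype labels, and the number of table columns that matched no sample was 0. The titles number the mice individually, and nothing else is stated on how they were sampled, so p-values measure the spread between these mice.

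The 15128 genes with a mean of at least 3 were fitted in limma 3.58.1 (R 4.3.3) with 1 mean per genotype and a mean-variance trend, with Benjamini-Hochberg adjustment over all of them within a comparison, a threshold of 0.05 and two-sided tests. Fold changes are differences of rlog values, which understate the change of weakly expressed genes. The members, the related lists, the markers and the tests were chosen with earlier results of these data known. All members were named, together with *Gclc*, *Nfe2l2* and *Xist*, and up to 6 genes of each related list with the largest change among those past the threshold in a described comparison. Marker genes and *Hnf4a* were named as checks. The alternatives were array weights, eBayes without trend or with robust estimation, quantile normalization, median centring, a minimum of 6 or no filter, *Xist* as a covariate, a replicate block, the groups compared by themselves, each replicate pair by itself, and omission of each library.

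Same-numbered libraries deviated together from their group means, with every correlation above 0.1, for Nrf2 L-KO with WT (0.26 to 0.55) and L-DKO with Gclc L-KO (0.21 to 0.38). They did not for Gclc L-KO with WT (from -0.07), L-DKO with WT (from -0.05) or L-DKO with Nrf2 L-KO (from 0.04). The labels give these numbers no meaning.

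The fit was tested on simulated data with the spread of the 15128 genes and with shifts of 0.5 in 100 of them and of 1 in another 100. In the simulation of Gclc L-KO against WT, 41% and 89% of them were recovered, with 11 false calls. In that of L-DKO against WT, 41% and 88% were recovered, with 11. In that of Nrf2 L-KO against WT, 40% and 85% were recovered, with 6. The simulated share of changed genes differed from that called in the data, and the noise was independent between libraries and genes. The recovery therefore does not give the sensitivity of the real comparisons. Figures were drawn with matplotlib 3.10.9 in Python 3.11.15.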

Additional observations from a re-analysis of the deposited data

Results flagged for a closer look

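In 124 groups of 4 libraries, 1 per gene and genotype, 5 held a library far from the other 3 for the size of the group's range, and about 1 in 20 groups does so by chance. Nrf2 L-KO replicate 3 was lowest in *Agpat1* (8.02, the others 8.29 to 8.35) and *Agpat2* (11.78, the others 11.88 to 11.90), and highest in *Cideb* (12.51, the others 12.39 to 12.40). WT replicate 2 was lowest in *Agpat3* (12.39, the others 12.45 to 12.46). Gclc L-KO replicate 4 was highest in *Plin4* (6.99, the others 6.24 to 6.28).

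By the test of the difference itself, the change in L-DKO against WT differed between replicates 3 and 4 and replicates 1 and 2, as replicates 3 and 4 minus replicates 1 and 2, for *Hsd17b13* (0.70), *Pnpla2* (0.93), *Fitm1* (-1.81) and *Gpam* (-1.33). Among the genes of the related lists, *Acsl3* passed for the interaction, at 0.95 (SE 0.17, adjusted p = 0.022).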

How the results depend on the processing

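The number of members past the threshold moved with several choices, and the cause of each shift was not tested. Leaving out each library in turn gave 5 to 15 members for Gclc L-KO against WT, 0 to 7 for L-DKO against WT, 0 to 5 for L-DKO against Gclc L-KO and 0 to 6 for L-DKO against Nrf2 L-KO. Counts over all 15128 genes moved too. For Gclc L-KO against WT, 1959 rose and 2195 fell without Gclc L-KO replicate 1 (15 members), and 922 and 1077 without replicate 4 (5 members). For L-DKO against WT, 1120 rose and 1528 fell without L-DKO replicate 2 (7 members), and 161 and 269 without replicate 3 (0 members). Differences between the replicate pairs ranged from 0 to 4 for Gclc L-KO and from 0 to 5 for L-DKO. On replicates 1 and 2 alone the counts were 4 for Gclc L-KO against WT and 0 for L-DKO against WT, Gclc L-KO and Nrf2 L-KO. On replicates 3 and 4 alone they were 10, 6 and 6 for L-DKO against WT, Gclc L-KO and Nrf2 L-KO, and 1 for the interaction (*Lipa*). Of all 15128 genes, 1413 rose and 1949 fell there against WT, 1025 and 1155 against Gclc L-KO, and 1171 and 1584 against Nrf2 L-KO. With all libraries these were 573 and 933, 581 and 726, and 401 and 395. For the interaction on replicates 3 and 4, 207 genes were higher and 281 lower. With *Xist* as a covariate the member counts for L-DKO were 9, 4 and 6 in the same order. Over all genes, 1158, 947 and 941 rose and 1641, 1109 and 1019 fell. With only the groups compared the member counts were 2, 1 and 0, where 258, 268 and 128 genes rose and 465, 377 and 83 fell. Without a filter, 5 members passed in Gclc L-KO against WT and 1 for the pair difference in L-DKO, which was 2 without a trend. L-DKO against Nrf2 L-KO gave 3 with a minimum of 6, 2 with median centring and 2 with quantile normalization, where L-DKO against WT gave 3. The pair difference in Gclc L-KO gave 1 with a minimum of 6, with robust eBayes and with quantile normalization, and 2 with array weights. With the replicate block, L-DKO against Nrf2 L-KO gave 3 (*Lpin1*, *Mgll* and *Plin3*), Gclc L-KO against WT 10, L-DKO against WT 6 and L-DKO against Gclc L-KO 3 (*Lpin3* added). There *Pnpla3* passed in Gclc L-KO (-1.10, adjusted p = 0.0049) and *Lipa* did not, and *Plin2* passed in L-DKO (0.81, adjusted p = 0.0496), and the block changed no other call in these comparisons. Among members that passed in at least 1 fit of a comparison, signs reversed only on replicates 1 and 2 alone, for *Agpat2* (0.16) and *Pnpla2* (-0.082) in Gclc L-KO against WT, for *Agpat2* (0.20), *Gpam* (0.29), *Gpat3* (-0.0055) and *Hsd17b13* (-0.085) in L-DKO against WT, for *Gpam* (0.14) in L-DKO against Nrf2 L-KO and for *Lipa* (0.0081) in L-DKO against Gclc L-KO. Over all 31 members and 6 comparisons, signs also turned for differences that did not pass, in 34 of 186 values on replicates 1 and 2, 21 of 186 on replicates 3 and 4 and 77 of 2976 with 1 library left out. Of the other single-gene values, 1582 kept their direction and side of the threshold, 137 no longer passed and 106 newly passed. Depth is unknown, and 4 libraries per genotype set the precision.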
